A study of Mus musculus with 4 samples.

Results

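The T cell receptor complex and its proximal kinases were followed in single-cell RNA data from mouse draining lymph nodes. By name, 10 genes were taken of the 32285 counted. They are the receptor chains Cd3d, Cd3e, Cd3g and Cd247, the coreceptors Cd4, Cd8a and Cd8b1, the kinases Lck and Zap70, and the adaptor Lat. The rule names them and sets no threshold on a measured value. The libraries came from C57BL/6 wildtype mice, 2 of them given iPSC EVs (the EV group) and 2 not (the Control group). EVs are small membrane vesicles, here released by induced pluripotent stem cells. The study's text gives 100 μg of EVs under the skin, PBS for the control mice and collection on day 5, whereas the labels give 24 h and controls with no treatment. The study's text calls the libraries of a group biological replicates, and how many mice went into each library is not stated, so p-values measure the spread between these libraries.

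Cells were assigned by UMIs (unique molecular identifiers, each marking a captured mRNA molecule) of a few genes. T cells held at least 1 UMI of the receptor beta constant genes Trbc1 or Trbc2 and none of the B cell gene Cd79a. Within them, cells with a Foxp3 UMI formed the Foxp3 gate, Foxp3 being a gene that marks regulatory T cells. Of the rest, cells with Cd4 UMIs and none of Cd8a or Cd8b1 formed the CD4 gate, and the opposite formed the CD8 gate. Cd4, Cd8a and Cd8b1 are therefore not read in these last 2 gates. The 4 libraries held 8297 to 9000 barcodes and 50749656 to 70418672 UMIs, and 32725 of 34323 barcodes passed the limits on genes, UMIs and mitochondrial share. The T gate held 4508 and 4687 cells in control libraries 1 and 2 and 2525 and 3458 in EV libraries 1 and 2. The CD4 gate held 810 to 1527 cells per library, the CD8 gate 1109 to 2107 and the Foxp3 gate 102 to 209. T cells of the EV libraries were deeper, with median UMIs of 8736 and 8078.5 against 6434 and 7521 in the control libraries. Libraries shared 12 to 26 cell barcodes per pair, at most 0.300% of the smaller library. EV library 2 stood apart in Gm42418, with 787 CPM (UMIs per 1000000 UMIs of the gate in that library, after TMM scaling, a trimmed-mean factor) in T cells against 5705 in EV library 1 and 8608 and 9931 in the control libraries.

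The labelled tissue was checked against its markers. The summed level of 8 T cell markers (Trac, Thy1, Tcf7 and others) lay between 4619 and 7366 CPM in the CD4, CD8 and Foxp3 gates and between 209 and 235 in the B gate (Cd79a, no Trbc). The 5 regulatory T cell markers, Il2ra and Ctla4 among them, summed to 2830 to 3354 in the Foxp3 gate against 204 to 233 in the CD4 gate. The 4 CD8 markers summed to 1360 to 1599 in the CD8 gate against 335 to 366 in the CD4 gate, 130 to 355 in the Foxp3 gate and 12.1 to 59.5 in the B gate. They were not particular to the CD8 gate. They summed to 389 to 1786 in the myeloid gate (Lyz2 or C1qa UMIs, no Trbc or Cd79a) and to 1043 to 1711 in T cells with neither coreceptor detected. T cells with neither coreceptor detected (389 to 776 cells per library) held both CD4 and CD8 markers and γδ T cell markers, at 107 to 164 CPM against at most 6.12 in the CD4 gate.

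As background, the antigen receptor of most T cells is an αβ heterodimer with short tails of its own. It signals through the CD3 chains and the ζ chain (Cd247), whose cytoplasmic tails carry tyrosine motifs. CD4 or CD8 binds the same MHC molecule as the receptor and brings in the kinase Lck, which phosphorylates those motifs. Zap70 docks on the phosphorylated motifs and in turn phosphorylates the adaptor Lat, on which the downstream complexes assemble.

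On GRCm38, Cd3g (chr9:44969572-44980431, minus strand) and Cd3d (chr9:44981786-44987339, plus strand) lie head to head, with start sites 1355 bases apart, and Cd3e (chr9:44998740-45009627, minus) follows. Cd247 lies at chr1:165788681-165877277 (plus), Zap70 at chr1:36761798-36782818 (plus), Lck at chr4:129548344-129573641 (minus) and Lat at chr7:126363824-126369570 (minus). Cd8b1 (chr6:71322788-71337494) and Cd8a (chr6:71373427-71379173) are neighbours on the plus strand, and Cd4 lies at chr6:124864692-124888221 (minus). Cd3e overlaps the antisense gene Gm48719, and Cd247 overlaps Gm16565 on its own strand and Gm37469 and Pou2f1 on the other. Values of Cd247 are uncertain to the extent that reads shared with Gm16565, on its own strand, were split or dropped. What part the genes on the opposite strand had in values of Cd3e and Cd247 was not tested. Gm48719 itself held 3.06 to 5.99 CPM in T cells of 3 libraries, with control library 1 highest.

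RefSeq promoters (GRCm38.p6, 250 bases before to 50 after a start site) were found for 8 of the 10 genes, and Cd4 and Cd8b1 had no entry. A selection of 5 is shown, read 5′ to 3′ on the gene's strand. Cd3d and Cd3g are the head-to-head pair whose levels stayed close between the groups, and Lck, Zap70 and Lat are the genes with the largest positive differences in T cells. Capitals mark AGGAAG or its reverse complement CTTCCT, letters that contain the GGAA core of ETS factors. The windows are chr9:44981536-44981835 for Cd3d, chr9:44980382-44980681 for Cd3g, chr4:129573592-129573891 for Lck, chr1:36761548-36761847 for Zap70 and chr7:126369519-126369818 for Lat.
Cd3d: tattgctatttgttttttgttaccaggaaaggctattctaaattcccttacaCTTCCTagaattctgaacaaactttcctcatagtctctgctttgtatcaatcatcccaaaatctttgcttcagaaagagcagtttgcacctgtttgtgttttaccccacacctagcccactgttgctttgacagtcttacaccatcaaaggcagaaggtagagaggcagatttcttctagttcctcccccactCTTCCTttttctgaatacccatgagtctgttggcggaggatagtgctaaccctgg
Cd3g: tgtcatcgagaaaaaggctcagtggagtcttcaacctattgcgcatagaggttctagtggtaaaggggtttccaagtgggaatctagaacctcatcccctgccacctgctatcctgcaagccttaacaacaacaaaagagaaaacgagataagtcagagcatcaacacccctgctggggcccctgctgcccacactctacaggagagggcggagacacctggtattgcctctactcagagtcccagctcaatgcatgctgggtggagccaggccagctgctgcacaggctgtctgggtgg
Lck: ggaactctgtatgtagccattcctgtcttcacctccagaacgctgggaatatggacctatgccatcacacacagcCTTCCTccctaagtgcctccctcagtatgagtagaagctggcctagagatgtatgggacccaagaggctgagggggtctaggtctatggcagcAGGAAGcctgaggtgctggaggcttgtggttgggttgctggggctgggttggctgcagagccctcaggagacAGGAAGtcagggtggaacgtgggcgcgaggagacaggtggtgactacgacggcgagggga
Zap70: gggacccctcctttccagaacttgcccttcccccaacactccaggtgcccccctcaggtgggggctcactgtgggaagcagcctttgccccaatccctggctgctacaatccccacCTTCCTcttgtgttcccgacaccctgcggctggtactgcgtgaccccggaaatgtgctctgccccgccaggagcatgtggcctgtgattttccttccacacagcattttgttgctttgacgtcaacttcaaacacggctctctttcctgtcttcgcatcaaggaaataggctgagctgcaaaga
Lat: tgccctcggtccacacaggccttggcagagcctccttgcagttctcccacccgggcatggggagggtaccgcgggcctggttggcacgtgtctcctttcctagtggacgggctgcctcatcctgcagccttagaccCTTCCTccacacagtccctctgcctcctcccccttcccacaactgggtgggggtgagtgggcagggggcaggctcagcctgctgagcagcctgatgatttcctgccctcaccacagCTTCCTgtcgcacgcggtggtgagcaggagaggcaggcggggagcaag
These windows held 2 matches in Cd3d, 0 in Cd3g, 3 in Lck, 1 in Zap70 and 2 in Lat. AGGAAG was present in 8 of the 11 promoter windows of these genes, with either strand read, and in 35.4% of all 32851 windows in the table. TGTGGT, a Runx-type sequence, was present in 3 of the 11 (the Lck and Lat windows shown and another start site of Zap70) and in 16.8% of all windows. Lck and Zap70 have more than 1 start site in the table, and reads from the 3′ end of an mRNA do not tell them apart.

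Levels across gates are in CPM, as mean ± SD of all 4 libraries. Each CD3 chain was high in the CD4, CD8 and Foxp3 gates and near 0 in the B and myeloid gates. Cd3d, the δ chain, averaged 768 ± 72.2 in the CD4 gate, 870 ± 50.8 in the CD8 gate and 686 ± 67.9 in the Foxp3 gate, against 3.89 ± 1.17 in the B gate. Cd3g, the γ chain, averaged 801 ± 33.6, 809 ± 19.7 and 689 ± 52.8 in the same T cell gates, and Cd3e, the ε chain, 462 ± 46.3, 493 ± 22.8 and 419 ± 38.5. Their ranges over libraries overlapped between CD4 and CD8 cells for all 3 chains, and gates of the same library are compared below. Cd247 was ordered CD4 gate (723 ± 101), Foxp3 gate (553 ± 67.7), CD8 gate (509 ± 52.8), and the last 2 overlapped.

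**Figure D1:**
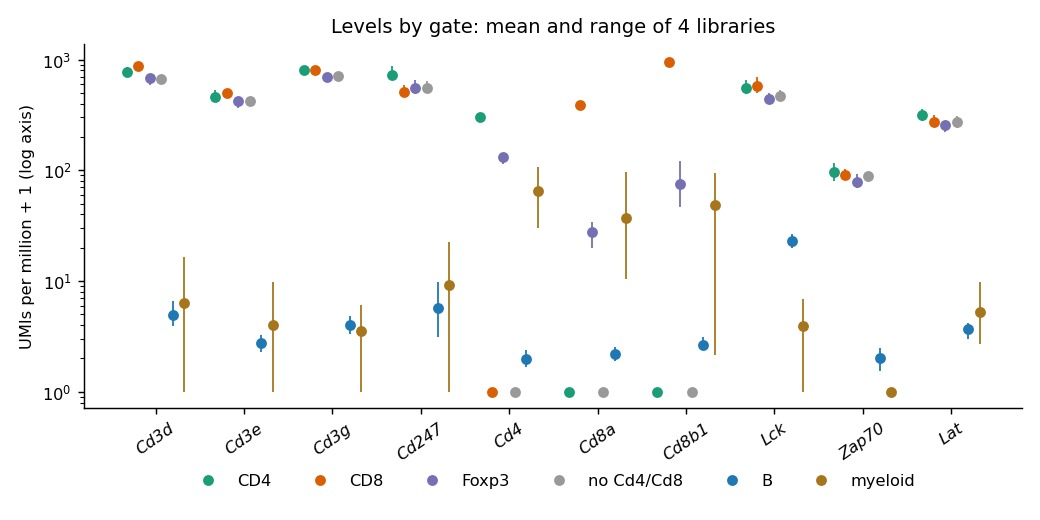
Levels of the 10 genes in each gate, as CPM plus 1 on a log axis; points are means and bars the range of the 4 libraries (no Cd4/Cd8: T cells with neither coreceptor detected). The receptor chains, Zap70 and Lat sit near the bottom in B and myeloid gates, Lck is at 22.0 in the B gate, and the coreceptors are 0 by construction in gates that they set.

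Of the signaling genes, Lck averaged 550 ± 73.1 in the CD4 gate, 577 ± 89.1 in the CD8 gate and 437 ± 42.4 in the Foxp3 gate. In the B gate Lck was still detected at 22.0 ± 3.23. Zap70 was between 76.6 ± 10.3 and 94.9 ± 16.1 in the T cell gates and at 1.03 ± 0.474 in the B gate. Lat averaged 312 ± 34.4, 272 ± 33.7 and 256 ± 26.5 in CD4, CD8 and Foxp3 cells and 2.72 ± 0.513 in B cells. Cd4, Cd8a and Cd8b1 were also seen in the myeloid gate (Lyz2 or C1qa UMIs, 91 to 194 cells per library), at 64.1 ± 31.4, 36.2 ± 40.4 and 47.6 ± 39.2. There the 8 T cell markers summed to 37.4 to 245 CPM and the B markers, Cd74 among them, to 5809 to 9185. The part of Cd74 in the B marker sum, and of RNA from other cells in these values, was not tested. Cd4 in the Foxp3 gate was at 129 ± 10.8, and 51.7% to 59.8% of its cells held a Cd4 UMI.

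The order between the T cell gates was tested with both gates of each library in one edgeR quasi-likelihood fit and library as a block. Against CD4 cells, CD8 cells held less Cd247 (log2 difference −0.51 ± 0.03 SE, adjusted p = 8.43e-10) and less Lat (−0.21 ± 0.03, adjusted p = 1.45e-05), lower in 4 of 4 libraries each. Cd3d was higher in CD8 cells in 4 of 4 libraries (0.17 ± 0.02, adjusted p = 2.69e-05). Cd3e was higher in 3 of 4 (0.09 ± 0.03, adjusted p = 0.0499). That makes 4 of the 7 genes read, beside 37.9% of the 12018 genes tested (19.5% higher and 18.3% lower). Cd3g (0.00), Lck (0.05) and Zap70 (−0.10) did not pass. Zap70 passed after thinning each cell to 2000 UMIs (−0.27, adjusted p = 0.0198) and without control library 1 (−0.13, adjusted p = 0.0440), and Lck with no filter on low counts (0.07, adjusted p = 0.0309). The Cd3e call was lost under another scaling, after thinning and without control library 1, control library 2 or EV library 1. The Lat call was lost after thinning. Gates were set anew on the thinned counts, and the CD4 gate then held 410 to 782 cells per library.

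The Foxp3 gate, unlike the CD4 gate, does not use Cd4, Cd8a or Cd8b1, so it also holds cells with CD8 UMIs or with neither coreceptor. What part this had in the differences was not tested. Foxp3 cells held less of several members than CD4 cells did, and 4 of 7 passed, each lower, beside 21.4% of the 10580 genes tested (9.18% lower). The log2 differences were −0.33 ± 0.05 for Cd247 (adjusted p = 4.63e-05), −0.27 ± 0.06 for Lck (adjusted p = 0.00135), −0.23 ± 0.06 for Lat (adjusted p = 0.00910) and −0.16 ± 0.05 for Cd3g (adjusted p = 0.0217), each lower in 4 of 4 libraries. Zap70 (−0.24), Cd3d (−0.11) and Cd3e (−0.08) did not pass, though Zap70 (−0.30) and Cd3d (−0.17) did with no filter on low counts. After thinning each cell to 2000 UMIs, the Cd247 call was left of these 4. Without control library 1 or EV library 2 the Lat and Cd3g calls were lost, and without control library 2 the Cd3g call.

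The main comparison asked how the genes differed between EV-treated and control mice within T cells. In the T gate the CD3 chains and Cd4 and Cd8a were at nearly the same level in both groups, whereas Lck, Zap70 and Lat were higher in both EV libraries than in both control libraries without passing the test. In T cells 0 of the 10 genes passed at an adjusted p under 0.05 in edgeR's quasi-likelihood test, beside 0.506% of the 14229 genes tested. At an unadjusted p under 0.05, 3 of 10 passed, beside 19.6% of all genes, and DESeq2 called 1 (Lck), beside 2.41% of all genes. The median log2 fold change of the 10 was 0.07, and that of all genes −0.00.

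**Figure D2:**
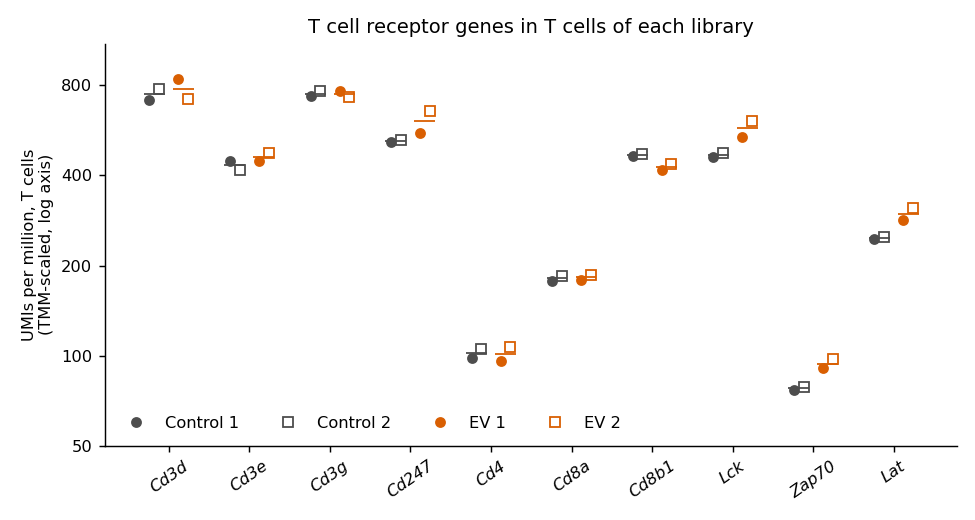
CPM in T cells (TMM-scaled, log axis) for each library; circles and squares are libraries 1 and 2, and short lines are group means. Lck, Zap70 and Lat lie higher in both EV libraries, Cd8b1 lies lower, and the CD3 chains overlap.

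Among the receptor chains, the control values of Cd3d were 715 (library 1) and 780 (library 2) CPM, and the EV values 838 and 720, the order kept from here on. The groups overlapped, and the log2 fold change was 0.06 (95% confidence interval −0.19 to 0.31). Cd3e stood at 448 and 418 in the control and 446 and 476 in the EV libraries, again with overlap (0.09, −0.11 to 0.29). Cd3g, its partner next to Cd3d, was at 736 and 763 against 767 and 730 (−0.00, −0.21 to 0.20). So the interval of each CD3 chain spans 0, and the widest, that of Cd3d, reaches 0.31. Cd247, the ζ chain, was at 516 and 525 in control and at 556 and 658 in EV-treated libraries. Here the groups did not overlap, but EV library 1 was much nearer to the control libraries than EV library 2 was. Its log2 fold change was 0.22 ± 0.10 SE (adjusted p = 0.284).

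The coreceptor genes can be read in the T gate because they do not set it. Cd4 was at 98.3 and 105 in the control and 96.1 and 106 in the EV libraries (log2 fold change −0.01, −0.19 to 0.18). Cd8a was at 178 and 185 against 179 and 186 (0.01, −0.16 to 0.18). Both overlapped almost fully. Cd8b1, the β chain that pairs with CD8α on conventional CD8 T cells, was at 465 and 471 against 417 and 438. Both EV libraries were lower, and the difference did not pass (−0.13 ± 0.08 SE, adjusted p = 0.404). The CD8 gate made up 45.1% and 45.0% of control and 43.9% and 42.9% of EV-treated T cells. These shares did not overlap either (exact permutation test, p = 0.333, the smallest that 2 against 2 libraries can give).

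Lck was at 461 and 475 against 539 and 610 CPM. Both EV libraries were above both controls, EV library 2 most (log2 fold change 0.29 ± 0.09 SE, adjusted p = 0.169). Zap70 was at 77.0 and 78.3 against 90.7 and 97.5 (0.28 ± 0.07, adjusted p = 0.118). Lat was at 246 and 250 against 284 and 310 (0.26 ± 0.08, adjusted p = 0.162). In each of these 3 genes the control libraries differed by far less than the EV libraries did. In all, 5 of the 10 genes did not overlap between the groups, beside 53.8% of all genes tested. Without EV library 1, 4 genes passed, at log2 fold changes of 0.33 (Zap70), 0.34 (Cd247), 0.38 (Lck) and 0.33 (Lat), beside 23.6% of all genes in that fit. Without EV library 2, Zap70 alone passed (0.22), beside 8.27%.

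Other cell types' genes moved with the groups inside the T gate. The 10 B cell markers summed to 281 and 274 CPM in the control and 312 and 362 in the EV libraries, with 1 of 10 called (Igkc, log2 fold change 1.04), and Ms4a1 was at 1.05 to 2.12. The 7 NK cell markers summed to 240 and 274 against 275 and 290, with 1 of 7 called (Eomes), and the 7 myeloid markers to 213 and 219 against 242 and 279, with 5 of 7 higher without overlap. The 8 stress genes, heat shock genes among them, summed to 972 and 983 against 1557 and 1583, with 1 of 8 called (Hspa8, 0.90). Hspa8 alone was at 658 and 674 against 1170 and 1309 CPM and made up most of each sum. Of the 8 genes, 5 had a positive log2 fold change. With cells that held UMIs of other lineages taken out, which was chosen after seeing the data, the log2 fold changes were 0.31 for Lck, 0.33 for Zap70 and 0.29 for Lat, and with doublets removed 0.30, 0.28 and 0.26. With cells thinned to 2000 UMIs and gated anew they were 0.28, 0.26 and 0.28. Stress-type genes were the ribosomal, mitochondrial, Hsp and Dnaj genes and Gm42418, AY036118, Cmss1, Cdk8, Lars2 and Camk1d. With them left out of the library sizes the log2 fold changes were 0.29, 0.28 and 0.26. None of these passed.

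**Figure D3:**
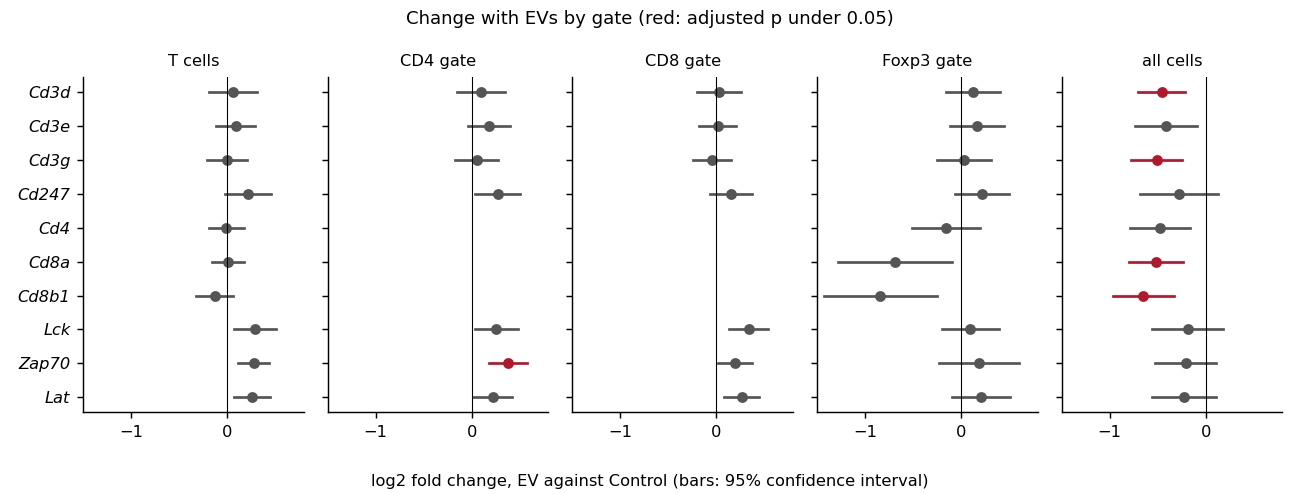
Log2 fold changes of EV against Control by gate, with 95% confidence intervals from edgeR; red marks an adjusted p under 0.05. Zap70 is marked in the CD4 gate, and Cd3d, Cd3g, Cd8a and Cd8b1 are marked, lower, over all cells; genes that set a gate are left out there.

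In the CD4 gate Zap70 rose, the only one of the 7 genes read that passed the test, beside 2.52% of 11714 genes (1.67% higher). At an unadjusted p under 0.05, 4 of 7 passed (17.9% of all genes did). The control values were 77.5 and 81.7 CPM and the EV values 98.7 and 108, so the groups stood apart. The log2 fold change was 0.38 ± 0.09 SE, or 1.30-fold (adjusted p = 0.0479). This value lies close to the threshold. The call was lost with DESeq2 (adjusted p = 0.147, beside 1.57% of all genes called), after thinning (0.26, adjusted p = 0.559), with Foxp3 cells kept in the gate (adjusted p = 0.0717) and without control library 1, control library 2 or EV library 2 (0.34, 0.42 and 0.31, adjusted p = 0.506, 0.184 and 0.0718). Over the alternatives the adjusted p ranged from 5.90e-05 to 0.559. Marker genes were called in this gate too, with log2 fold changes of 1.00 for Izumo1r and 0.54 for Tnfsf8 (2 of 4 CD4 markers). Of 9 B cell markers tested, 2 were called higher (Igkc 1.04 and Cd74 1.06). Of 5 regulatory T cell markers, 1 was called, lower (Ikzf2 −0.40). In these lists 3 of 4, 7 of 9 and 2 of 5 values were positive. What part the make-up of the gate had in the Zap70 value was not tested. Of the markers of NK cells, which also use Zap70, 3 of 6 tested were called higher in this gate. The 6 summed to 58.6 and 53.3 against 63.4 and 67.2 CPM. The 3 called were Klra4 with 1 and 0 against 36 and 38 UMIs, Gzma with 4 and 6 against 19 and 33, and Eomes with 5 and 8 against 23 and 68. Klrd1, Prf1 and Tyrobp held most UMIs of each sum and were not called. Per 1000000 UMIs of the gate, without TMM scaling, Klrd1 was lower in both EV libraries (22.9 and 24.5 against 21.5 and 18.1). On that scale Prf1 (20.9 and 20.3 against 19.2 and 23.4) and Tyrobp (13.9 and 6.84 against 10.1 and 11.6) overlapped. With cells holding other-lineage UMIs taken out, which was chosen after seeing the data, Zap70 had 0.42 (adjusted p = 0.0268). The cells kept held 0 and 0 against 0 and 1 UMIs of Klra4 and 4 and 6 against 5 and 3 of Gzma, whereas Eomes stayed at 5 and 7 against 22 and 58. Stress genes summed to 982 and 1014 against 1566 and 1560 CPM, of which Hspa8 alone held 634 and 630 against 1133 and 1272. With the stress-type genes named above, ribosomal and mitochondrial genes and Cdk8 among them, left out of the library sizes, Zap70 had 0.38 (adjusted p = 0.0499).

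The other genes in CD4 cells pointed the same way without passing. Cd247 was at 635 and 629 against 708 and 817 CPM (log2 fold change 0.27 ± 0.11 SE, adjusted p = 0.207). Lck was at 480 and 485 against 540 and 615 (0.26 ± 0.10, adjusted p = 0.209). Lat was at 271 and 286 against 310 and 337 (0.22 ± 0.09, adjusted p = 0.249). Cd3e was at 430 and 405 against 449 and 497 (0.18 ± 0.10, adjusted p = 0.363). These 4 and Zap70 did not overlap between the groups, 5 of 7 beside 49.4% of all genes. Cd3d (0.10) and Cd3g (0.05) overlapped. Without EV library 1, the 5 genes apart from Cd3d and Cd3g passed, beside 16.5% of all genes in that fit.

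In the CD8 gate 0 of the 7 genes passed, beside 0.999% of 12517 genes. At an unadjusted p under 0.05, 3 passed in edgeR (18.2% of all genes did), and DESeq2 called 1, beside 1.44% of all genes. Lck showed the largest difference, at 460 and 479 against 563 and 624 CPM. Its log2 fold change was 0.34 ± 0.09 SE, or 1.26-fold (adjusted p = 0.108). Lck passed with DESeq2 (adjusted p = 0.0123), with no filter on low counts (adjusted p = 0.0139), with the replicate number as a block (0.34) and without EV library 1 (0.42). It did not pass in the other alternatives, and its log2 fold change over all of them ranged from 0.26 to 0.42. The direction was the same in each of the 16 alternatives.

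Lat in CD8 cells was at 228 and 228 against 261 and 286 (log2 fold change 0.26 ± 0.08 SE, adjusted p = 0.147). Thinned cells gave 0.39 (adjusted p = 0.0456). Zap70 was at 76.2 and 76.8 against 82.7 and 92.2 (0.19 ± 0.08, adjusted p = 0.244), and Cd247 at 438 and 452 against 456 and 532 (0.15 ± 0.10, adjusted p = 0.430). The EV libraries were above the control libraries in all 4 of these genes, Lck included, which is 4 of 7 without overlap beside 50.7% of all genes. The CD3 chains overlapped, with log2 fold changes of 0.03 for Cd3d, 0.01 for Cd3e and −0.04 for Cd3g. Without EV library 1, Lck, Zap70, Lat and Cd247 passed, beside 11.1% of all genes, and without EV library 2 none did, beside 2.17%.

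Whether the EV difference itself differed between CD8 and CD4 cells was tested as an interaction. Cd3e passed, with an EV effect lower by 0.17 ± 0.04 SE on the log2 scale in CD8 cells (interaction −0.17, adjusted p = 0.0412), the only one of 7, beside 0.99% of 12018 genes. At an unadjusted p under 0.05, 5 of 7 passed (9.34% of all genes did). Its own effects were 0.18 in CD4 and 0.01 in CD8 cells, neither of which passed. The call was lost after thinning (−0.12) and without control library 1, control library 2 or EV library 2 (−0.16, −0.18 and −0.13). Zap70 (−0.18, adjusted p = 0.371), Cd247 (−0.12, adjusted p = 0.151), Lck (0.08, adjusted p = 0.551) and Lat (0.04, adjusted p = 0.860) did not pass. So the Zap70 call in CD4 cells was not shown to differ from the value in CD8 cells.

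The Foxp3 gate held few cells, and 0 of the 10 genes passed there in edgeR, beside 0.0466% of 8582 genes. At an unadjusted p under 0.05, 2 passed (7.53% of all genes did), and DESeq2 called none, beside 0.151% of all genes. Cd8b1 was at 75.9 and 132 against 67.9 and 48.5 CPM (log2 fold change −0.84 ± 0.27 SE, adjusted p = 0.486). Control library 2 was the highest, and the value was −0.39 without it and −1.19 without control library 1. Cd8a was at 35.4 and 36.2 against 20.6 and 23.7 (−0.69 ± 0.28, adjusted p = 0.626). Both were lower in both EV libraries, from 17 to 168 UMIs per library and gene. Cd8a UMIs were found in 6.86% to 9.57% of these cells and Cd8b1 UMIs in 10.8% to 17.8%. In the B gate the shares were at most 0.727% and 0.920%.

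Among the other genes in Foxp3 cells, Cd247 was at 541 and 569 against 602 and 693 (0.22 ± 0.13 SE, adjusted p = 0.754). Lat was at 245 and 271 against 303 and 293 (0.21 ± 0.14, adjusted p = 0.811). Lck was at 473 and 447 against 448 and 536 and overlapped (0.10, −0.20 to 0.40). Zap70 was at 75.2 and 80.3 against 99.4 and 78.7 and overlapped too (0.19, −0.23 to 0.61). In all, 6 of 10 did not overlap, 3 higher and 3 lower, beside 37.7% of all genes. The interaction of Foxp3 against CD4 cells passed for 0 of 7 genes in edgeR, the tool run here (0.198% of 10580 genes did), and for 0 of 7 at an unadjusted p under 0.05 (5.67% did). The interval of Zap70 in Foxp3 cells holds both 0 and the value in CD4 cells.

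Over all cells of the node the picture turned round. Cd3d, Cd3g, Cd8a and Cd8b1 fell, 4 of 10 genes beside 8.2% of the 16106 genes tested (2.99% lower). At an unadjusted p under 0.05, 6 of 10 passed (27.1% of all genes did), and 6 of 10 did not overlap (60.2% of all genes did not). Within the T gate these 4 genes had values of 0.06, −0.00, 0.01 and −0.13. T cells made up 55.4% and 59.4% of control and 30.9% and 40.5% of EV-treated cells, and B cells 35.2% and 30.0% against 57.0% and 48.4% (exact permutation test, p = 0.333 for each). Cd8b1 was at 320 and 341 CPM against 183 and 239, with both EV libraries lower (log2 fold change −0.65 ± 0.13 SE, adjusted p = 0.0348). Cd8a was at 123 and 135 against 79.7 and 101 (−0.52 ± 0.12, adjusted p = 0.0482). Cd3g was at 501 and 547 against 338 and 398 (−0.51 ± 0.11, adjusted p = 0.0422), and Cd3d at 489 and 560 against 369 and 394 (−0.46 ± 0.10, adjusted p = 0.0450).

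Over all cells, Cd4 (−0.48, adjusted p = 0.0732) and Cd3e (−0.41, adjusted p = 0.115) did not pass in edgeR, though their groups did not overlap. DESeq2 called both (adjusted p = 0.00777 and 0.0168), beside 10.7% of all genes, as did edgeR with the replicate number as a block (adjusted p = 0.00377 and 0.0378), and Cd4 also passed with no filter on low counts (adjusted p = 0.0418). The Cd8a call was lost with RLE factors, after thinning and with no upper limits on genes and UMIs (adjusted p = 0.0501, 0.0539 and 0.0553). The last of these settings also lowered the mitochondrial limit to 5%. The 4 genes that were high in EV T cells overlapped over all cells. Lck was at 321 and 349 against 247 and 343 (−0.19, −0.56 to 0.19). The log2 fold changes of Zap70, Lat and Cd247 were −0.21, −0.23 and −0.28. The calls moved with the libraries, to 1 gene without control library 1, 0 without control library 2 and 10 without EV library 2, beside 4.36%, 4.49% and 15.7% of all genes. In the same fit 9 of 10 B cell markers were called higher, Cd74 at 1.08, and Trac, Trbc1 and Trbc2 were called lower (−0.43, −0.63 and −0.50).

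A quantity that needs no scaling of libraries is the ratio of UMIs within a gate. This was chosen after seeing the data. For every 100 UMIs of Cd3d, Cd3e and Cd3g, T cells held 41.3 and 41.0 UMIs of Lck, Zap70 and Lat in control and 44.5 and 52.8 in EV-treated libraries. In the CD8 gate these were 38.7 and 38.5 against 44.1 and 51.3. The control libraries nearly coincided and both EV libraries lay above. In the CD4 gate the values were 44.6 and 44.2 against 45.0 and 54.4, so EV library 1 was nearly level with the controls. Each of these had p = 0.333 in an exact permutation test, the smallest possible. Foxp3 cells overlapped (45.0 and 39.7 against 40.8 and 46.3).

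**Figure D4:**
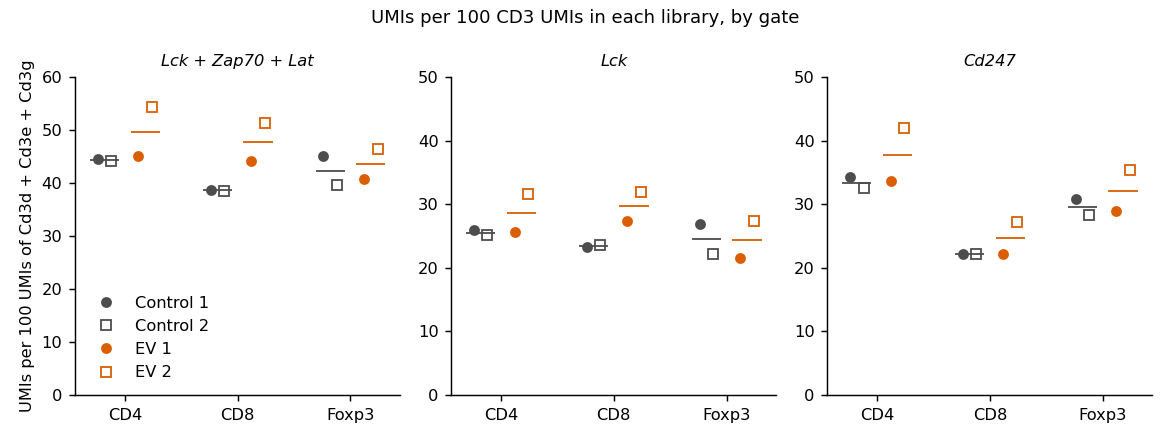
UMIs of Lck, Zap70 and Lat together, of Lck and of Cd247 per 100 UMIs of the 3 CD3 chains in each library and gate (axes start at 0; short lines are group means). In CD8 cells both EV libraries lie above the controls for the sum (44.1 and 51.3 against 38.7 and 38.5), and EV library 2 is the higher one.

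Lck alone was at 23.3 and 23.5 per 100 CD3 UMIs in control CD8 cells and 27.4 and 32.0 in EV CD8 cells, and overlapped in CD4 cells (25.9 and 25.1 against 25.6 and 31.6). Zap70 stood apart in both gates, at 4.18 and 4.23 against 4.68 and 5.54 in CD4 cells. In CD8 cells it was at 3.86 and 3.77 against 4.02 and 4.72, so EV library 1 was close to the controls. Lat overlapped in CD4 cells (14.6 and 14.8 against 14.7 and 17.3) and stood apart in CD8 cells (11.6 and 11.2 against 12.7 and 14.6). Cd247 in CD8 cells was at 22.2 in both control libraries and EV library 1 and at 27.2 in EV library 2, so its difference came from EV library 2. Cd3d per 100 Cd3g UMIs overlapped in each gate (97.1 and 102 against 109 and 98.7 in T cells). Cd8b1 per 100 Cd8a UMIs in T cells was 261 and 254 in the control and 232 and 235 in the EV libraries, with both EV libraries lower (exact permutation test, p = 0.333).

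The share of T cells in which a gene was seen followed depth as well as level. A Lck UMI was found in 93.1% and 95.2% of control T cells and 96.9% and 97.1% of EV T cells. For Zap70 these were 39.4% and 43.2% against 50.9% and 53.6%, and for Lat 78.7% and 82.6% against 88.0% and 89.8%. Control libraries were lower in each. The B gate, for comparison, had median depths of 4121 to 5790.5 UMIs. It held a Zap70 UMI in 0.322% to 0.751% of cells, a Lat UMI in 1.01% to 1.86% and a Lck UMI in 7.37% to 11.0%. Whether these UMIs came from B cells or from RNA of other cells was not tested. In T cells 95% Wilson intervals reached at most 1.95 percentage points to each side for these genes and cover counting error only.

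Thinning each cell to 2000 UMIs left out 156 to 261 cells per library, and gates were then set anew on the thinned counts. In EV library 1 the T gate went from 2525 to 2575 cells, and cells with both Trbc and Cd79a UMIs from 624 to 263. Lck was then seen in 61.2% and 61.1% of control and 65.2% and 71.1% of EV T cells. Lat was seen in 40.0% and 38.7% against 44.7% and 48.0%, and Zap70 in 13.6% and 14.3% against 15.5% and 17.1%. Each of these kept both EV libraries above both controls, by fewer percentage points than before for Zap70 and Lat. Cd3d (75.2% and 77.1% against 78.5% and 74.2%) and Cd3e (59.0% and 56.2% against 57.9% and 61.9%) overlapped. Cd8b1 was lower in the EV libraries, at 39.2% and 38.4% against 35.5% and 36.4%. Within thinned CD8 cells the Zap70 shares overlapped (13.5% and 14.3% against 12.5% and 16.3%).

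**Figure D5:**
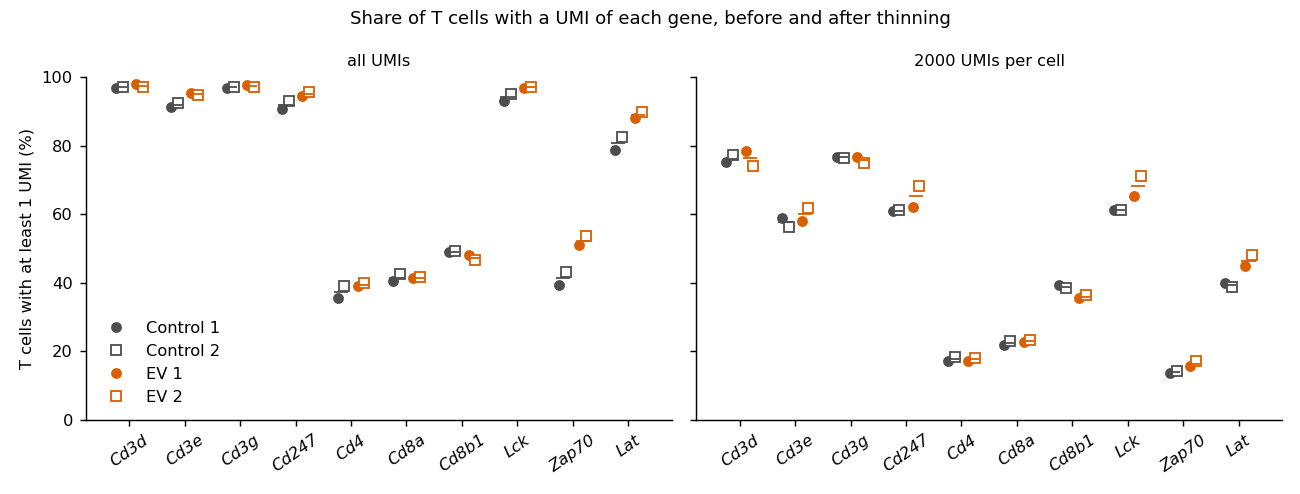
Percentage of T cells with at least 1 UMI of each gene per library, with all UMIs (left) and after thinning each cell to 2000 UMIs (right). Lck, Lat and Zap70 are higher in both EV libraries in both panels, whereas Cd3e separates on the left and overlaps on the right.

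Single cells mostly held several receptor chains. All of Cd3d, Cd3e, Cd3g and Cd247 were detected in 79.6% and 85.5% of control CD4 cells and 91.9% and 91.1% of EV CD4 cells, and in 84.8% and 89.5% against 93.8% and 93.2% of CD8 cells. After thinning, these shares were 25.2% and 24.0% against 24.1% and 27.4% in CD4 cells and 22.0% and 20.8% against 22.3% and 24.2% in CD8 cells. The CD4 groups then overlapped, and CD8 cells differed by little. Before thinning, no more than 0.345% of CD4 or CD8 cells held none of the 4 chains, against 94.3% to 94.9% of B gate cells.

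Other genes of the pathway were followed as lists. Of 23 proximal activators, such as Fyn and Lcp2, 0 passed in the T, CD4, CD8 and Foxp3 gates with edgeR and 0 with DESeq2, while 7, 9, 5 and 3 had an unadjusted p under 0.05 in edgeR, beside 19.6%, 17.9%, 18.2% and 7.53% of all genes. The list medians were 0.14, 0.18, 0.13 and 0.09 on the log2 scale, beside medians over all genes of −0.00, −0.00, −0.00 and 0.00. In T cells the largest were Skap1 (0.30, adjusted p = 0.246) and Lcp2, the adaptor SLP-76 (0.29, adjusted p = 0.240). In CD4 cells Lcp2 (0.38) and Sh2d2a (0.38) did not pass, in CD8 cells Trat1 (0.27) and Fyn (0.27), and in Foxp3 cells Tec (0.57) and Sh2d2a (0.51). In T cells 10 of the 23 were higher without overlap and none lower, beside 26.2% and 27.6% of all genes.

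Of 20 proximal inhibitors, 2 rose in CD4 cells in edgeR, beside 1.67% of all genes, and 0 of 20 in DESeq2, beside 1.57% called. In the T, CD8 and Foxp3 gates 0 passed in edgeR (8, 6 and 2 at an unadjusted p under 0.05, beside 19.6%, 18.2% and 7.53% of all genes). There DESeq2 called 1, 0 and 0, beside 2.41%, 1.44% and 0.151% of all genes. The list medians were 0.10, 0.11, 0.08 and 0.14 in T, CD4, CD8 and Foxp3 cells. Cblb, a ubiquitin ligase that restrains receptor signaling, had a log2 fold change of 0.61 ± 0.14 SE in CD4 cells (adjusted p = 0.0440). It was at 209 and 239 against 405 and 280 CPM, so EV library 1 was well above EV library 2. Lax1, an adaptor that dampens it, had 0.52 ± 0.11 (adjusted p = 0.0208). In T cells as a whole the same genes had values of 0.39 and 0.35, in CD8 cells 0.27 and 0.38, without passing. Dok2 (0.61) and Ptpn22 (0.44) were the largest in Foxp3 cells, also without passing.

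Of 16 genes that receptor signals induce, 1 passed in CD4 cells and 1 in CD8 cells, in opposite directions, beside 2.52% and 0.999% of all genes, with list medians of 0.35 and −0.24. DESeq2 called 0 in CD4 and 1 in CD8 cells, beside 1.57% and 1.44% of all genes. In T and Foxp3 cells 0 passed in either tool (1 and 2 at an unadjusted p under 0.05 in edgeR, beside 19.6% and 7.53% of all genes). Irf4 rose in CD4 cells (0.60 ± 0.14 SE, adjusted p = 0.0471), where 9 of 16 were higher without overlap. Egr3 fell in CD8 cells by 0.88 on the log2 scale (SE 0.16, adjusted p = 0.0363), where 5 of 16 were lower without overlap and 1 higher. Nr4a1 (0.84) and Tnfrsf9 (1.36) had the largest values in Foxp3 cells and did not pass. EV library 1 was the high one for both, with Nr4a1 at 20.2 and 27.6 against 65.4 and 21.6 CPM and Tnfrsf9 at 320 in EV library 1 and at most 120 in the other libraries. In T cells Tnfrsf9 (0.51) and Nr4a2 (−0.47) did not. Over all genes in the CD4 gate 24.3% were higher and 25.1% lower without overlap, and in the CD8 gate 24.7% and 26.0%. Of the 8 other receptor chains, 0 passed within the T, CD4, CD8 and Foxp3 gates in edgeR. At an unadjusted p under 0.05, 1, 1, 0 and 1 passed there, beside 19.6%, 17.9%, 18.2% and 7.53% of all genes. DESeq2 called 1 in T cells and 0 in the other gates, beside 2.41%, 1.57%, 1.44% and 0.151% of all genes in the same order. In T cells Fcer1g had 0.81 (adjusted p = 0.0998) and Tcrg-C1 −0.22, and in CD4 cells Tcrg-C4 had −0.86 and Fcer1g 0.72. In CD8 cells Tcrg-C2 had 0.41 and Trdc −0.33, and in Foxp3 cells Trbc1 had −0.35 and Trac 0.21. Fcer1g is also on the list of myeloid markers. Both Fcer1g and Trdc are among the genes by which other-lineage cells were taken out.

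Over all cells, where composition moves with the groups, 3 of 23 activators passed (Txk −0.49, Tec 0.51, Grb2 0.68), 5 of 20 inhibitors (Csk 0.44, Pag1 0.46, Sla 0.46 and Lax1 0.45 higher, Sit1 −0.60) and 3 of 16 induced genes (Rel 0.68 and Cd69 0.35 higher, Egr1 −0.44), beside 8.2% of all genes. Sla and Csk are also used by B cells.

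The pattern most like that of the CD3 chains over CD4, CD8, Foxp3, B and myeloid gates was measured as the Pearson correlation of log2 levels with the mean of Cd3d, Cd3e and Cd3g, over 20 points (5 gates in 4 libraries). The points share libraries and mainly contrast T cells with other cells. Gates for γδ T cells and NK cells held 0 to 6 cells per library and were left out. The 5 genes most alike that were not members were Gm2682 (r = 0.998), Trbc2 (0.997) and Trbc1 (0.997), which set the T gate, Ubash3a (0.995) and Gm14085 (0.995). Among the members outside the CD3 chains the values were 0.993 for Zap70, 0.987 for Lat, 0.971 for Cd247 and 0.932 for Lck. The coreceptors, which set some of the gates, had 0.320 (Cd8b1), 0.252 (Cd8a) and 0.223 (Cd4).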

How the data were processed

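Cells of mouse draining lymph nodes were profiled by 10x 3′ v3.1 single-cell RNA sequencing in 2 EV and 2 Control libraries. The authors deposited UMI counts per gene and barcode, made with Cell Ranger 7.1.0 against mm10 per the labels and the study's methods, with no further filter on cells. From these counts, cells with 200 to 5000 genes, at most 20000 UMIs and under 10% mitochondrial UMIs were kept (7891 to 8529 per library, median 5502 to 6639 UMIs). Gates were set by UMIs as the report describes, and doublets were scored with Scrublet in scanpy 1.11.5 but removed only as an alternative. Raw UMIs were summed per library and gate and tested over all genes with the quasi-likelihood test of edgeR 4.0.16 in R 4.3.3 (TMM, filterByExpr, two-sided, Benjamini-Hochberg adjustment over all genes tested, called at an adjusted p under 0.05), with library as a block where gates were compared. Adjusted p-values and standard errors in the report are from these fits unless DESeq2 1.42.0 is named. The EV against Control fits were tested on simulated data, with log2 changes of 1 or 2 planted in genes above a minimum of UMIs. Over the gates 82% to 93% of changes of 1 and 99% to 100% of changes of 2 were recovered. Smaller changes, as the members had in the EV against Control fits of all 4 libraries, were not simulated. Shares of cells have 95% Wilson intervals, which cover counting error only, and shares over libraries an exact two-sided permutation test (scipy 1.17.1).

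The members and gene lists were chosen with earlier results of these data known, and p-values were not adjusted over the lists alone. The lists were proximal activators, proximal inhibitors, genes induced by the receptor, other receptor chains, and markers of T, CD4, CD8, regulatory T, B, NK, γδ T and myeloid cells and of dissociation stress. Of each pathway list, called genes were named (at most the 5 of smallest p), or the 2 with the largest absolute change where none was called, and of genes outside the lists the 5 most alike to the CD3 chains. Alternatives were DESeq2, RLE factors, no filter on low counts, library sizes without stress-type genes, a replicate block and thinned cells. Others were other cell limits, doublets removed, a stricter T gate, Foxp3 cells kept, and each library left out. Stress-type genes here include ribosomal and mitochondrial genes and Cdk8 beside heat shock genes. Thinned cells were gated anew. The setting with no upper limits on genes and UMIs also lowered the mitochondrial limit to 5%. Removal of cells with other-lineage UMIs and UMI ratios were added after seeing the data, as was 1 subset of T cells that is not reported here.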

Additional observations from a re-analysis of the deposited data

Results flagged for a closer look

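The EV effect on Cd3e differed between CD8 and CD4 cells in a test of the difference itself (interaction of −0.17 on the log2 scale, adjusted p = 0.0412 in edgeR's quasi-likelihood test). In CD4 cells the control libraries were at 430 and 405 CPM, and both EV libraries were above them, at 449 and 497. In CD8 cells the groups overlapped, with control libraries at 469 and 436 and EV libraries at 444 and 469 CPM. The interaction was negative in 8 of 8 alternatives, with adjusted p-values from 0.00317 to 0.892. Cd3e overlaps Gm48719, which lies on the opposite strand and whose part in this value was not tested.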

How the results depend on the processing

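Of the member log2 fold changes, 126 of 150 values over the alternatives kept their direction and side of the threshold in the T gate, 99 of 112 in CD4, 97 of 112 in CD8, 139 of 148 in Foxp3 and 106 of 130 over all cells, as did 51 of 56 and 44 of 56 for the interactions of CD8 and Foxp3 cells with CD4 cells and 43 of 56 and 46 of 56 for the differences in level. The cause of a change was not tested where none is named.

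The number of genes called in the T gate was 343 with DESeq2, 1415 with no filter on low counts, 124 after thinning and 130 with other-lineage cells removed, against 72. In CD4 it was 184 with DESeq2, 806 with no filter and 86 after thinning, against 295. In CD8 it was 912 with no filter and 206 with other-lineage cells removed, against 125. In Foxp3 cells it was 13 with DESeq2, 140 with no filter, 7 after thinning, 0 with no upper limits, 9 without doublets, 9 with a T gate of 2 UMIs and 11 with other-lineage cells removed, against 4. The interactions called 217 (CD8) and 63 (Foxp3) with no filter and 23 and 0 after thinning, against 119 and 21, and the differences in level 1848 and 669 after thinning, against 4552 and 2266. Thinning keeps fewer UMIs, and gates were set anew on the thinned counts. The setting that removed other-lineage cells was chosen after seeing the data.

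Members called were 1 in T cells with DESeq2 and 2 with no filter, against 0. They were 0 in CD4, against 1, with DESeq2, thinning and Foxp3 cells kept. They were 1 in CD8 with DESeq2, no filter and thinning, and 1 in Foxp3 cells with no filter (Cd8b1), against 0 in each. After thinning they were 0 for the CD8 interaction, against 1, and 1 for the Foxp3 level, against 4. With 1 library left out, genes called ranged from 74 to 3487 (T), 191 to 2036 (CD4), 46 to 1435 (CD8), 0 to 135 (Foxp3), 725 to 3802 (all cells), 77 to 185 (CD8 interaction) and 38 to 112 (Foxp3 interaction), and members called from 0 to 4 (T), 0 to 5 (CD4), 0 to 4 (CD8), 0 to 10 (all cells), 0 to 1 for the CD8 interaction and 2 to 4 for the Foxp3 level. The highest of these gene counts were without EV replicate 1 in T, CD4, CD8 and all cells and the CD8 interaction, and without EV replicate 2 for Foxp3 cells and their interaction. A lone library left in a group is assumed to vary like the others.

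Signs turned only for uncalled values. In T cells Cd3g was 0.0029 with DESeq2, 0.0030 with RLE factors, 0.0034 with no filter, 0.010 with a T gate of 2 UMIs and 0.014 with other-lineage cells removed, and Cd4 was 0.00059, 0.0067 and 0.0062 under the last 3 of these. After thinning Cd3g was −0.062 in CD4, Cd3d −0.0047 and Cd3e −0.031 in CD8, Lck −0.012, Lat −0.35 and Cd3e −0.040 in Foxp3 cells, Cd3g 0.030 in the CD8 interaction, Lck −0.011 in the CD8 level, and Cd247 0.26, Lat −0.50 and Cd3e −0.052 in the Foxp3 interaction. With no upper limits Cd3e was −0.014 in CD8 and Cd3g −0.00089 in Foxp3 cells, and with RLE factors Cd3g was −0.00089 in the CD8 level. With 1 library left out, values ranged in T cells from −0.018 to 0.043 (Cd8a), −0.082 to 0.069 (Cd4), −0.035 to 0.034 (Cd3g) and −0.050 to 0.17 (Cd3d), in CD4 from −0.0036 to 0.11 (Cd3g) and −0.028 to 0.23 (Cd3d), in CD8 from −0.069 to 0.13 (Cd3d) and −0.036 to 0.066 (Cd3e), in Foxp3 cells from −0.068 to 0.15 (Cd3g), −0.010 to 0.27 (Cd3d) and −0.028 to 0.23 (Lck), over all cells from −0.44 to 0.031 (Lck), in the CD8 level from −0.016 to 0.035 (Cd3g), and in the Foxp3 interaction from −0.050 to 0.099 (Lat), −0.026 to 0.060 (Cd3g), −0.095 to 0.14 (Cd3e), −0.055 to 0.027 (Cd247), −0.38 to 0.068 (Zap70) and −0.060 to 0.18 (Cd3d). The EV minus Control difference in the Foxp3 share of T cells ranged from −0.88 to 0.15 percentage points.

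The groups share replicate numbers, and with 2 pairs nothing shows that a number marks a shared animal or day (correlations of same-numbered deviations from −0.038 to 0.22 over the gates). With the replicate number as a block, genes called were 698 (T), 841 (CD4), 1116 (CD8), 27 (Foxp3) and 2672 (all cells), and members called 0, 1, 1 (Lck), 0 and 6.

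Depth was low for Cd8a and Cd8b1 in the Foxp3 gate, where a library held between 17 and 168 UMIs of either gene.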
